A study of Homo sapiens with 6 samples.

Results

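The 34 genes described here act in the DNA damage checkpoint and in repair by homologous recombination, together with the Fanconi anaemia pathway and the mismatch recognition factor MSH6. They were taken by name, and each was read from the probe set paired with that symbol alone, or from the brightest such probe set where there were several. Of the 34 genes, 30 had such a probe set among the 18417 genes tested, and RBBP8, BRCA2, FANCA and FANCD2 were not analysed here. Only CLSPN had more than one probe set of its own.

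The RNA came from HCT116, a colorectal carcinoma cell line of human origin that is deficient in mismatch repair. Cells were harvested 48 h after transient transfection with double-stranded siRNA, and nothing else was added to either group according to the labels. There were 3 arrays labelled siChe-1, for an siRNA whose target is Che-1 (gene symbol AATF), and 3 arrays labelled control, for an siRNA against GFP. All 6 were single-colour whole-transcript arrays made from 6 micrograms of total RNA, with values given as log2 RMA intensities (RMA is a background correction, quantile normalization and probe set summary). Whether replicate arrays stem from separate cultures is not stated in the labels. The p-values therefore reflect array-to-array spread, which may be technical, and 3 arrays a group limit the precision.

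When DNA breaks or a replication fork stalls, the kinases ATM and ATR are activated with the help of sensor and mediator proteins, and they pass the signal to CHEK2 and CHEK1, which hold the cell cycle. Broken ends are cut back to single strands, and BRCA1, PALB2 and BRCA2 then help to start the copying of the missing sequence from the sister chromatid. The Fanconi proteins bring the same machinery to DNA interstrand crosslinks. Many of these genes are transcribed mainly in cells that are preparing to replicate their DNA. Che-1 is itself a known substrate of ATM and CHEK2 after DNA damage, which is the link between the targeted protein and this pathway.

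The targeted gene AATF read 8.53, 8.81 and 8.87 in arrays labelled siChe-1, against 7.55, 7.75 and 7.55 in arrays labelled control (log2 RMA intensity, replicates 1 to 3). The difference was 1.12 ± 0.13 (SE, limma adjusted p = 0.00122). It was higher where the siRNA should lower it, which goes against the labels, and the cause was not tested. The groups are therefore named by their labels throughout, and every direction would turn if those labels were exchanged. One array also stood apart from its group. Replicate 1 of siChe-1 correlated with its group mates at r = 0.984 and 0.986 over all genes, whereas every other pair within a group lay between 0.994 and 0.996. It was the lowest of the 3 siChe-1 arrays for 38.8% of all genes and for 27 of the 30 checkpoint and recombination genes. That share also varied with level, from 22.2% of genes with a mean under 5 to 44.1% at 6 to 7, 55.6% at 7 to 8 and 61.8% over 8, and all of the 30 genes but FANCB have a mean over 6. Results are therefore given with and without it. The colon epithelial markers (10 of 10 measured) had a median level of 8.56, and the fibroblast, leukocyte and endothelial lists had median levels of 3.97, 3.68 and 3.29. Among those other cell types' markers 1 of the 7 leukocyte genes and none of the 8 fibroblast or 5 endothelial genes passed, CD68, a lysosomal protein of macrophages, with a difference of -1.56 (limma adjusted p = 0.000553), and its part in the results was not tested. Of the 10 colon epithelial markers 1 passed, KRT19, with a difference of -0.59 (limma adjusted p = 0.0171), and 5 of the 10 differences were below 0. Without siChe-1 replicate 1, KRT19 and KRT18 passed, both lower.

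No checkpoint or recombination gene differed between the groups at an adjusted p under 0.05 (limma, Benjamini-Hochberg over all 18417 genes), where 3.72% of all genes passed, 2.52% lower and 1.19% higher. The median difference of the 30 genes, siChe-1 minus control, was -0.24 on the log2 scale, beside 0.01 over all genes. The individual differences ran between -0.68 for CHEK2 and 0.12 for FANCC, and 28 of the 30 were below 0, beside 49.1% of all genes. That number was 21 with array weights, 25 after another quantile normalization, 29 after centring the arrays on their medians and 30 without siChe-1 replicate 3. Centring also moved the median over all genes to -0.059. At an unadjusted p under 0.05, 17.7% of all genes and 7 of the 30 differed. All 7 were lower (CHEK2, PALB2, RAD51C, TIPIN, NBN, FANCB and RAD54L), where 9.77% of all genes were lower and 7.88% were higher by that measure. The groups did not overlap for 9 genes, all of them lower, beside 24% of all genes, 13.3% lower and 10.6% higher.

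Without siChe-1 replicate 1 the median difference was -0.09, with 18 genes below 0 and 12 above, beside 51.1% of all genes below 0. Again no gene of the 30 passed by limma, where 8.5% of all genes passed, 4.48% lower and 4.01% higher. In that comparison 4 genes were lower and 3 were higher at an unadjusted p under 0.05, where 23% of all genes differed, 11.4% lower and 11.6% higher. The groups did not overlap for 9 lower and 5 higher genes, beside 40.1% of all genes, 20.5% lower and 19.7% higher. The 5 higher genes were ATM, CHEK1, TOPBP1, BRIP1 and FANCC. The 95% confidence interval of the difference lay within a 2-fold change in either direction for 27 of the 30 genes with all arrays, and for 30 of 30 without siChe-1 replicate 1. The 3 exceptions were CHEK2, MRE11 and FANCB, whose lower bounds were -1.08, -1.02 and -1.04. Over all 18417 genes the interval lay within that range for 17766 with all arrays and for 17854 without siChe-1 replicate 1. RNA from a culture is a bulk measure, so fewer cells that express a gene and less RNA of it per cell cannot be told apart.

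**Figure D1:**
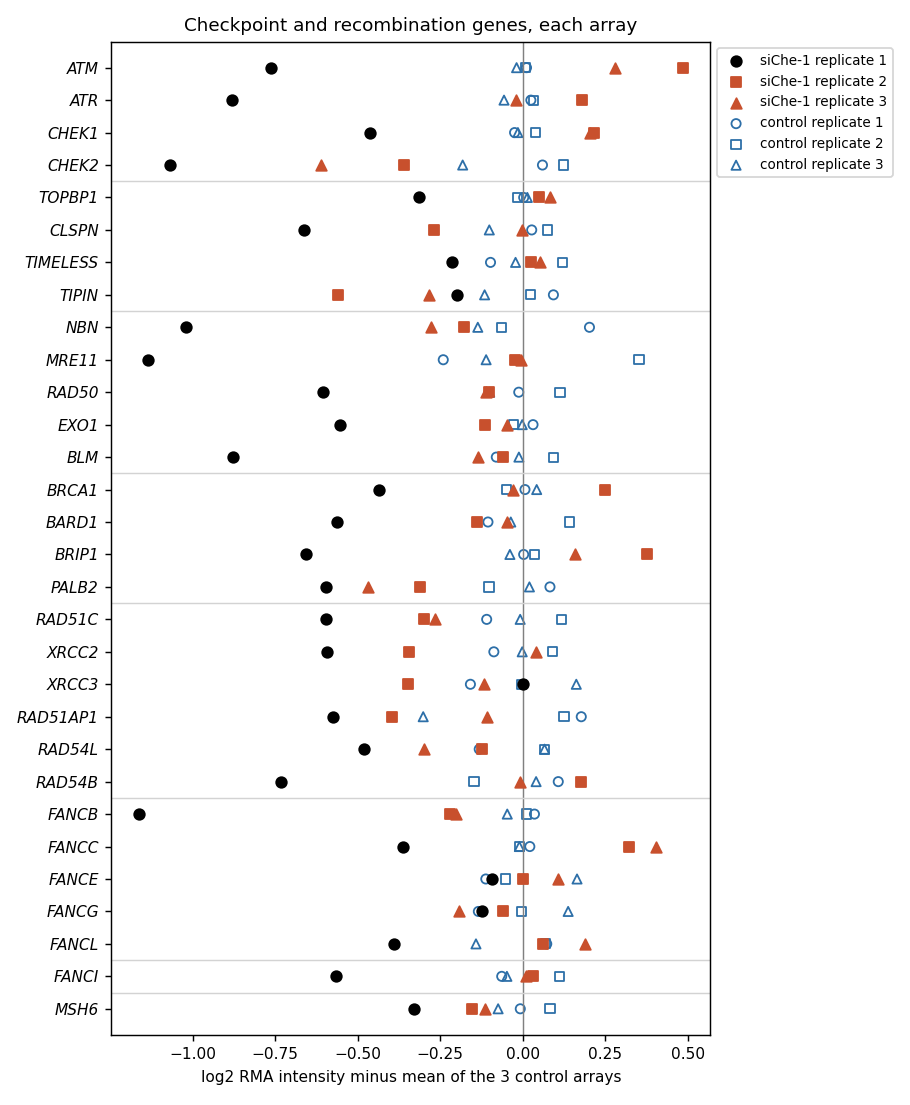
Level of each of the 30 genes in each array, as log2 RMA intensity minus the mean of the 3 control arrays of that gene (x axis). Genes run down the page by role, filled symbols are the arrays labelled siChe-1 (replicate 1 in black) and open symbols the arrays labelled control. The black symbol is the lowest of all 6 arrays for 26 of the 30 genes, while siChe-1 replicates 2 and 3 lie on both sides of the control arrays.

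Among the checkpoint kinases, the groups were apart for CHEK2 and overlapped for ATM, ATR and CHEK1. CHEK2, the kinase that ATM activates after double-strand breaks, read 5.49, 6.20 and 5.95 in the arrays labelled siChe-1, against 6.62, 6.69 and 6.38 in those labelled control. The groups did not overlap, and all 3 siChe-1 values lay below the lowest control value. The difference was -0.68 ± 0.18 (SE, limma adjusted p = 0.0695), a 1.60-fold lower level, and -0.49 ± 0.13 without siChe-1 replicate 1 (adjusted p = 0.0513). CHEK2 has pseudogene copies in the genome, and their part in this signal was not tested. With the arrays centred on their medians its limma adjusted p was 0.0464, where 850 of the 18417 genes passed and 680 were lower. CHEK2 also passed without siChe-1 replicate 2 (difference -0.84, limma adjusted p = 0.0365), where 2.51% of all genes passed and 1.88% were lower. It did not pass when any of the other arrays was left out, with limma adjusted p between 0.0513 and 0.256. Of all genes, 1.9% passed without siChe-1 replicate 3, and 1.48%, 1.57% and 1.48% without control replicates 1, 2 and 3.

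ATM, the kinase that responds to double-strand breaks, read 6.29, 7.54 and 7.33 in the arrays labelled siChe-1 and 7.07, 7.06 and 7.04 in those labelled control. The control arrays were nearly identical, whereas siChe-1 replicate 1 lay below all of them and replicates 2 and 3 above. The difference was -0.00011 ± 0.27 with all arrays and 0.38 ± 0.11 without siChe-1 replicate 1 (SE), the limma adjusted p without that array being 0.0663. ATR, the kinase of stalled forks, read 6.56, 7.62 and 7.42 in siChe-1 arrays and 7.46, 7.47 and 7.38 in control arrays, a difference of -0.24, or 0.08 without that array. CHEK1, the kinase downstream of ATR, read 8.33, 9.01 and 9.00 in siChe-1 arrays and 8.77, 8.83 and 8.78 in control arrays. Its difference was -0.01, or 0.21 without siChe-1 replicate 1 (limma adjusted p = 0.270). For CHEK1 as for ATM, replicates 2 and 3 of siChe-1 were above and replicate 1 below every control array.

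Of the 4 mediators that connect ATR to CHEK1 and protect the fork, all had a difference below 0 with all arrays and none passed. TIPIN, which with TIMELESS forms the fork protection complex, read 8.42, 8.06 and 8.34 in the arrays labelled siChe-1, against 8.72, 8.65 and 8.51 in those labelled control. The groups did not overlap, and here siChe-1 replicate 1 was the highest of its group. The difference was -0.35 ± 0.13 (SE, limma adjusted p = 0.204) and -0.42 ± 0.13 without siChe-1 replicate 1 (adjusted p = 0.0694). Its partner TIMELESS had overlapping groups and a difference of -0.05, or 0.04 without that array. CLSPN, the adaptor through which ATR phosphorylates CHEK1, differed by -0.31 (limma adjusted p = 0.375), and its dimmer second probe set, which was not used, by -0.44. TOPBP1, an activator of ATR, read 8.27, 8.63 and 8.66 in siChe-1 arrays and 8.58, 8.57 and 8.60 in control arrays, so it differed by -0.06 with all arrays and by 0.07 without siChe-1 replicate 1.

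**Figure D2:**
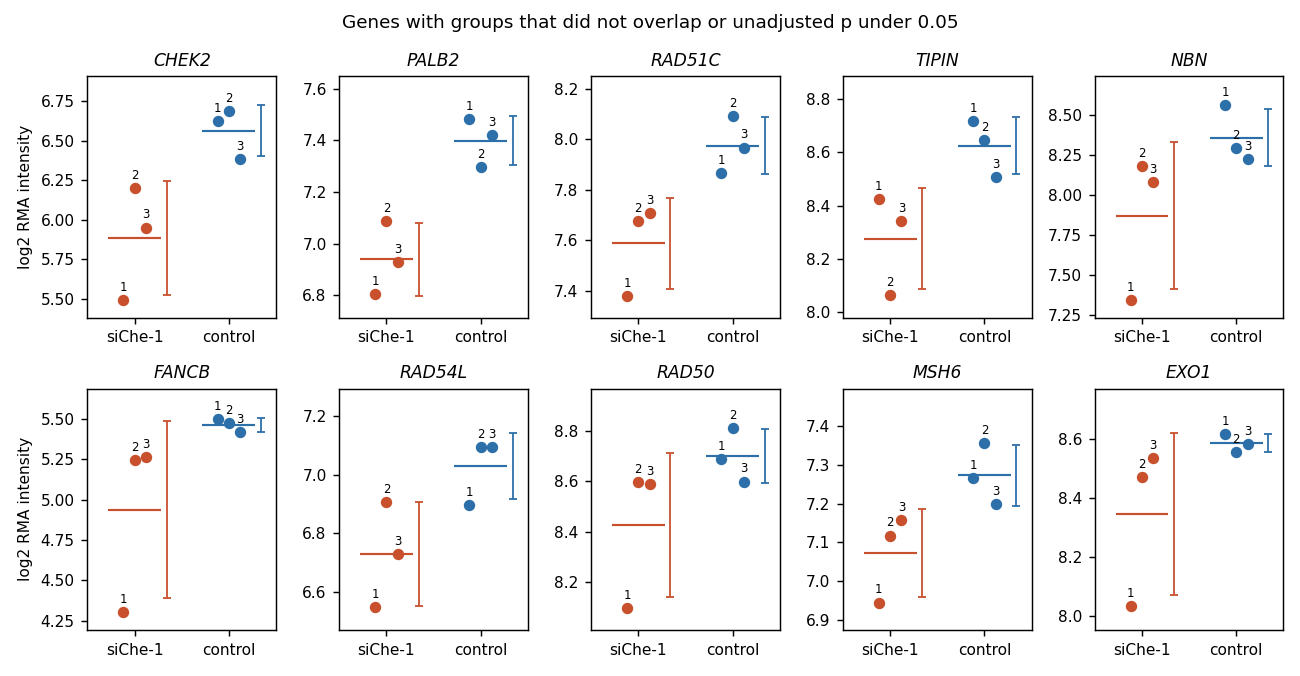
Log2 RMA intensity (y axis) of the 10 genes whose groups did not overlap or whose unadjusted p was under 0.05, in the arrays labelled siChe-1 (left) and control (right), ordered by p. Points are arrays with their replicate numbers, horizontal lines are means and bars are SDs (n = 3 each). CHEK2, PALB2 and RAD51C have all 3 siChe-1 arrays clearly below the control arrays. In CHEK2, as in NBN, FANCB, RAD50 and EXO1, siChe-1 replicate 1 lies far below the other siChe-1 arrays. Its deviation from their mean is -0.58 in CHEK2 and -0.50 in RAD50. The y axes do not start at 0 and differ between genes.

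Among the genes that sense and resect broken ends, all 5 measured had a difference below 0 with and without siChe-1 replicate 1, and none passed. NBN, the subunit of the MRN complex that recruits ATM, read 7.34, 8.18 and 8.08 in the arrays labelled siChe-1, against 8.56, 8.30 and 8.22 in those labelled control. The groups did not overlap, but replicates 2 and 3 of siChe-1 were close to the lowest control array. The difference was -0.49 ± 0.21 (SE, limma adjusted p = 0.254) and -0.23 ± 0.13 without siChe-1 replicate 1 (adjusted p = 0.334).

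MRE11, the nuclease of the same complex, read 5.07, 6.18 and 6.20 in siChe-1 arrays and 5.96, 6.56 and 6.09 in control arrays. Its difference was -0.39, and -0.01 without siChe-1 replicate 1. RAD50, the ATPase that tethers the ends, differed by -0.27 and by -0.11 without that array. Its groups did not overlap, but the siChe-1 values of 8.10, 8.60 and 8.59 and the control values of 8.69, 8.81 and 8.60 nearly touched. EXO1, a nuclease that extends resection and also acts in mismatch repair, read 8.03, 8.47 and 8.54 in siChe-1 arrays against 8.62, 8.56 and 8.58 in control arrays, a difference of -0.24, or -0.08 without siChe-1 replicate 1. BLM, the helicase that works with EXO1 and dissolves recombination intermediates, differed by -0.36 and by -0.10. In these 4 genes replicates 2 and 3 of siChe-1 differed little from control, with adjusted p of at least 0.634 without siChe-1 replicate 1 (limma).

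In the BRCA1 complexes PALB2 stood below control in every siChe-1 array, whereas BRCA1, BARD1 and BRIP1 had overlapping groups. PALB2, which links BRCA1 to BRCA2, read 6.80, 7.09 and 6.93 in the arrays labelled siChe-1, against 7.48, 7.30 and 7.42 in those labelled control. The highest siChe-1 array lay clearly below the lowest control array. The difference was -0.46 ± 0.12 (SE, limma adjusted p = 0.0769), a 1.37-fold lower level. It was -0.39 ± 0.12 without siChe-1 replicate 1 (adjusted p = 0.0666), so this gene depended little on that array. With the arrays centred on their medians PALB2 passed (limma adjusted p = 0.0422), where 850 of the 18417 genes passed and 680 were lower.

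BRCA1 read 6.93, 7.62 and 7.34 in siChe-1 arrays and 7.38, 7.32 and 7.41 in control arrays, a difference of -0.07, or 0.11 without siChe-1 replicate 1. BARD1, its ubiquitin ligase partner, differed by -0.25 and by -0.09 without that array. BRIP1, the helicase that binds BRCA1, read 6.56, 7.59 and 7.37 in siChe-1 arrays and 7.22, 7.25 and 7.18 in control arrays. Like ATM, it was below every control array in siChe-1 replicate 1 and above every control array in replicates 2 and 3. Its difference was -0.04, or 0.27 ± 0.11 (SE) without siChe-1 replicate 1 (limma adjusted p = 0.193).

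The 6 genes measured among the strand exchange factors all had differences below 0, between -0.39 and -0.16. RAD51C, which acts in strand exchange, read 7.38, 7.68 and 7.71 in the arrays labelled siChe-1, against 7.87, 8.09 and 7.97 in those labelled control, with no overlap. The difference was -0.39 ± 0.13 (SE, limma adjusted p = 0.154), and -0.28 ± 0.11 without siChe-1 replicate 1 (adjusted p = 0.169). RAD54L, a motor protein that promotes strand invasion, read 6.55, 6.91 and 6.73 in siChe-1 arrays and 6.90, 7.10 and 7.10 in control arrays, where the highest siChe-1 array just overlapped the lowest control array. Its difference was -0.30 (limma adjusted p = 0.272). RAD51AP1, which promotes strand pairing, differed by -0.36, and XRCC2, which acts in recombination, by -0.30, both with overlapping groups. XRCC3, the partner of RAD51C, differed by -0.16 and by -0.23 without siChe-1 replicate 1, in which it was the highest of its group. RAD54B, related to RAD54L, differed by -0.19, and by 0.08 without that array.

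The Fanconi genes were spread over both directions. FANCB, a core complex subunit, read 4.30, 5.25 and 5.26 in the arrays labelled siChe-1, against 5.50, 5.48 and 5.42 in those labelled control. The groups did not overlap and the difference was -0.53 ± 0.23 (SE, limma adjusted p = 0.259), but -0.21 ± 0.11 without siChe-1 replicate 1 (adjusted p = 0.270). These levels are near the array medians of 4.95 to 5.05 over all probe sets and have no detection call, which leaves the size of this difference uncertain. FANCC, another core subunit, read 6.21, 6.89 and 6.97 in siChe-1 arrays and 6.59, 6.56 and 6.56 in control arrays. It differed by 0.12, and by 0.36 ± 0.11 (SE) without siChe-1 replicate 1 (limma adjusted p = 0.0645). Replicate 1 was thus below and replicates 2 and 3 above all control arrays.

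FANCE, also of the core complex, differed by 0.0045, and by -0.06 after centring the arrays. FANCG, an adaptor in that complex, differed by -0.12 and FANCL by -0.05. FANCL is the ubiquitin ligase that modifies FANCD2 and FANCI. FANCI read 8.30, 8.90 and 8.88 in siChe-1 arrays and 8.80, 8.98 and 8.82 in control arrays, a difference of -0.17, or 0.02 without siChe-1 replicate 1. MSH6, which recognises base mismatches, read 6.94, 7.12 and 7.16 in the arrays labelled siChe-1 and 7.27, 7.36 and 7.20 in those labelled control. Its groups did not overlap, and the difference was -0.20 ± 0.12 (SE, limma adjusted p = 0.437), or -0.13 without siChe-1 replicate 1.

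**Figure D3:**
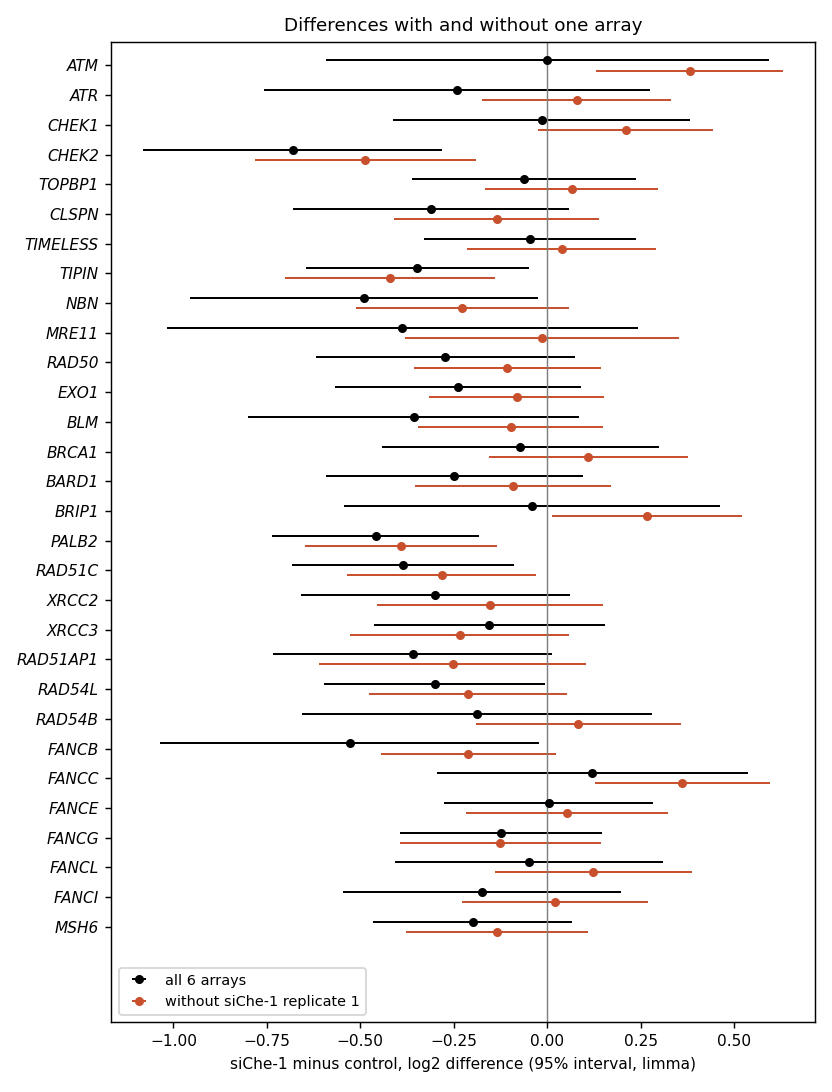
Difference of each of the 30 genes, siChe-1 minus control (x axis, log2), with its 95% confidence interval from limma, for all 6 arrays (black) and without siChe-1 replicate 1 (orange). CHEK2, TIPIN, PALB2 and RAD51C keep an interval below 0 in both, and ATM, BRIP1 and FANCC have an interval above 0 only without that array.

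How far siChe-1 replicate 1 lay below its group mates varied with the length of the gene, as well as with its level. Relative to the mean of replicates 2 and 3, replicate 1 had a median deviation of -0.51 over the 30 genes, beside 0.03 over all genes. The values ran between -1.15 for ATM and 0.23 for XRCC3. Across the 30 genes this deviation correlated with the genomic span of the gene (start to end in the NCBI annotation of GRCh38.p14) at Spearman rho = -0.841 and Pearson r = -0.772 on the log10 span. This is a correlation across genes within one set of arrays, and genes are not independent replicates. ATM spans 146 kb, and other long genes were also far down in replicate 1, namely ATR at -0.96 (129 kb), BRIP1 at -0.93 (184 kb), FANCB at -0.95 (184 kb) and MRE11 at -1.12 (96.8 kb). The short genes FANCG (6.10 kb), FANCE (14.8 kb) and XRCC3 (17.8 kb) deviated by 0.0021, -0.15 and 0.23.

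A gradient with span was also present over all genes. Over 10959 genes with a mean level of at least 5, the deviation of siChe-1 replicate 1 correlated with span at Spearman rho = -0.396. Its median was 0.16 for genes under 10 kb, -0.01 for 10 to 30 kb, -0.22 for 30 to 100 kb and -0.27 for genes over 100 kb. The control arrays, each set against the other 2, had medians between -0.04 and 0.06 in all 4 classes. The checkpoint and recombination genes had a median span of 55.0 kb, against 24.5 kb over all genes. Within the 30 to 100 kb class the 18 checkpoint and recombination genes had a median deviation of -0.49 in that array, and in the class over 100 kb the 7 genes had -0.93. The siChe-1 minus control median of these 18 genes was -0.30, and -0.10 without siChe-1 replicate 1, beside -0.04 and 0.03 for all 3391 genes of the class. For the 7 genes over 100 kb it was -0.07 and 0.11, beside 0.01 and 0.08 for all 1795 genes. The span classes and the level minimum were chosen after the data were seen, and the parts of gene length and level in the differences were not tested.

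**Figure D4:**
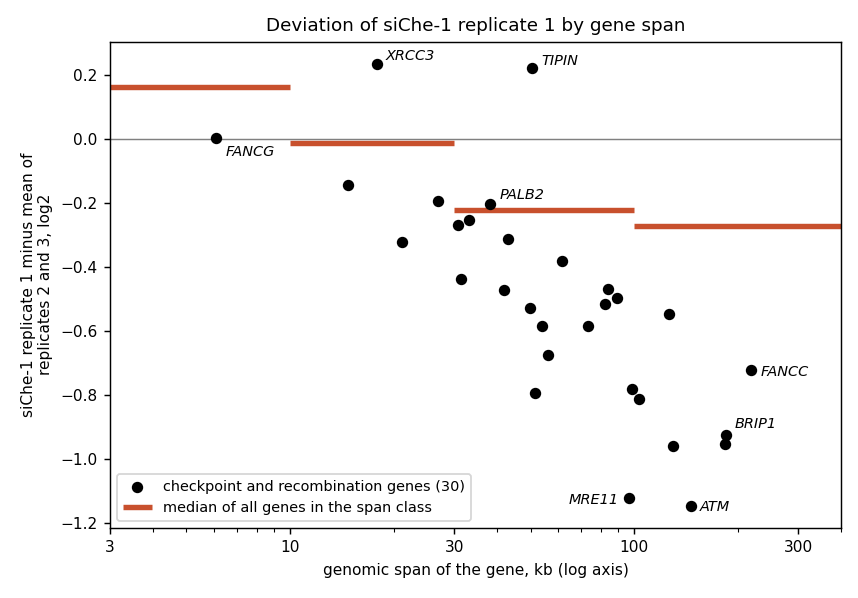
Deviation of siChe-1 replicate 1 from the mean of siChe-1 replicates 2 and 3 (y axis, log2) against the genomic span of the gene (x axis, kb, log scale). Points are the 30 checkpoint and recombination genes and orange lines are medians over all genes with a mean level of at least 5 in each span class. Longer genes lie lower, with ATM at -1.15, and most points lie below the line of their class.

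The promoters of the 4 genes with the smallest p are shown because these genes kept an interval below 0 without siChe-1 replicate 1. They are RefSeq windows of GRCh38.p14, from 250 bases before to 50 after an annotated start, written 5′ to 3′ on the gene's strand. Capitals mark matches, on either strand, to 5 motifs: E2F (TTTCCCGC, TTTCGCGC, TTTGCCGC or TTTGGCGC), the cell cycle element CHR, spelled TTTGAA, the CCAAT box of that spelling, the GC box, spelled GGGCGG, and the ETS site CCGGAAGT. The windows are CHEK2 at chr22:28741771-28742070 (minus strand), PALB2 at chr16:23641261-23641560 (minus strand), RAD51C at chr17:58692323-58692622 (plus strand) and TIPIN at chr15:66356636-66356935 (minus strand). RAD51C and TIPIN each have 2 windows in the table, of which the one with more motif bases, or the lower start, is shown.
CHEK2: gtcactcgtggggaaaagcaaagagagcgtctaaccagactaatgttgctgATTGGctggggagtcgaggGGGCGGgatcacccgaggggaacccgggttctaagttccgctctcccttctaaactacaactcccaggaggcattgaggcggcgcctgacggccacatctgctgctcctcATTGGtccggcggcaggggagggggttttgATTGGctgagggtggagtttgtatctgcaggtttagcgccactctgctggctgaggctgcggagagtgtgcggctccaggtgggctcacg
PALB2: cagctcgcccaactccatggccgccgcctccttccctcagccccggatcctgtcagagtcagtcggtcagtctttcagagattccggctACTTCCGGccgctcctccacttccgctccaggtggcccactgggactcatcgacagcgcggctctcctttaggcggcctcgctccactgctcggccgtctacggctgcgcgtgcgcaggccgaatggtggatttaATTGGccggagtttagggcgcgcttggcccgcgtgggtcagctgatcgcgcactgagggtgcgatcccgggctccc
RAD51C: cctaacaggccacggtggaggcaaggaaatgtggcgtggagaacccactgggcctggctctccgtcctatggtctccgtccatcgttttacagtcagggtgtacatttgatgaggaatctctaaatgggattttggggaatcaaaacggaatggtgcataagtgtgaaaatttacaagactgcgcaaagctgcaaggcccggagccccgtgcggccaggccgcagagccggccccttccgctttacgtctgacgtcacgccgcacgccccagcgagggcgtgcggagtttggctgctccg
TIPIN: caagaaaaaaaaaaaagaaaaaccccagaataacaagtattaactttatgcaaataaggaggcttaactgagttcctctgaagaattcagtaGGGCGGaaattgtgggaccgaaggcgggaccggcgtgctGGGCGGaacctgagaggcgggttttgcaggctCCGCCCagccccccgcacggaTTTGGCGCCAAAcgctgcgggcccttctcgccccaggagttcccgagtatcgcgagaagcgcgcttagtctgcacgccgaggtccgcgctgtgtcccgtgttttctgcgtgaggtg

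No motif occurs in all 4 windows. CHEK2 holds 3 CCAAT matches on the opposite strand and 1 GC box, and PALB2 holds 1 CCAAT and 1 ETS match. TIPIN holds 3 GC boxes and an E2F sequence that matches on both strands and overlaps itself, and neither RAD51C window holds a match. No match overlaps a match to a different motif in these windows. The other TIPIN window, which is not shown, holds a CCAAT match. Of the 34 genes, 31 had a window in the table. An E2F match was present in 9 of the 31 (29.0%), beside 3.99% of 27305 genes in the table, and a GC box in 27 (87.1%), beside 48.3%. CCAAT was present in 16 (51.6%, beside 39.7%), ETS in 5 (16.1%, beside 4.95%) and CHR in 3 (9.68%, beside 18.2%). The 7 measured genes with an E2F match had a median difference of -0.24, and the 20 measured genes with a window but no match had -0.24, against -0.13 and -0.09 without siChe-1 replicate 1. The 3 genes with CHR, which are ATM, BRIP1 and FANCC, had a median of -0.00011, and the 24 without it -0.26. Without siChe-1 replicate 1 these medians were 0.36 and -0.12. All 3 span over 100 kb (146, 184 and 219 kb), and the part of span in this contrast was not tested. The 7 measured genes over 100 kb had a median of -0.07, or 0.11 without siChe-1 replicate 1. For ETS the medians were -0.39 in 3 genes with and -0.22 in 24 genes without a match, against -0.11 and -0.09 without that array. For CCAAT they were -0.30 in 15 genes with and -0.24 in 12 without, against -0.13 and -0.09 without that array. For the GC box they were -0.24 in 24 with and -0.39 in 3 without, against -0.09 and -0.28 without that array. These medians were not tested. A match describes these letters only, and no match says only that they are not in the window.

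Genes of the same pathways outside the 34 are given next, by lists in which the called shares are to be read against the 3.72% of all genes that passed. Of 25 other recombination genes, 1 was lower and the other 24 did not pass, with 4 lower and none higher at an unadjusted p under 0.05. The lower gene was SFR1, a recombination factor, at 5.79, 5.42 and 5.67 in the arrays labelled siChe-1 against 6.36, 6.35 and 6.15 in those labelled control (difference -0.66 ± 0.14, SE, limma adjusted p = 0.0256). Its groups did not overlap, and siChe-1 replicate 1 was the highest of its group. Of 24 other checkpoint genes, 1 was lower and 23 did not pass, with 4 lower and 1 higher at an unadjusted p under 0.05. This was CDC25A, the phosphatase that CHEK1 and CHEK2 mark for destruction, at 6.73, 6.59 and 6.63 in siChe-1 arrays against 7.75, 7.32 and 7.41 in control arrays (difference -0.84 ± 0.14, SE, limma adjusted p = 0.00866). The difference of CDC25A was -0.88 without siChe-1 replicate 1.

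Of 12 end joining genes, 1 was lower and 11 did not pass, with 2 lower and none higher at an unadjusted p under 0.05. XRCC4, the partner of DNA ligase IV, read 7.89, 8.10 and 8.19 in siChe-1 arrays and 8.69, 8.65 and 8.48 in control arrays (difference -0.54 ± 0.13, SE, limma adjusted p = 0.0478). None of 17 other Fanconi and crosslink genes passed by limma, with 2 lower and 2 higher at an unadjusted p under 0.05. The nearest were DCLRE1B, a telomere-associated nuclease, at -0.58 (limma adjusted p = 0.0561), and MAD2L2, a subunit of DNA polymerase zeta and of shieldin, at 0.45 (adjusted p = 0.0574). None of 4 mismatch repair genes passed, with PMS1 at -0.27 and PMS2 at 0.25 and none at an unadjusted p under 0.05. None of 6 single-strand binding proteins passed, with RPA2 at -0.40 and RPA3 at 0.15 and 1 at an unadjusted p under 0.05.

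Lists of replication and mitotic genes were read as well, and the cell cycle state of the cells was not tested. Of 41 replication and E2F genes, 2 were lower and 39 did not pass. At an unadjusted p under 0.05, 15 of the 41 were lower and 1 was higher, beside 9.77% and 7.88% of all genes. Groups were apart for 16 lower genes and 1 higher gene, beside 13.3% and 10.6% of all genes, and 34 of the 41 differences were below 0, beside 49.1%. Without siChe-1 replicate 1, 5 were called lower by limma, beside 4.48% of all genes, and 17 were lower at an unadjusted p under 0.05, beside 11.4%. GINS3, of the replicative helicase, was lower (difference -0.67 ± 0.15), as was POLA2, a subunit of DNA polymerase alpha (difference -0.49 ± 0.12, SE, limma adjusted p = 0.0387 for GINS3 and 0.0487 for POLA2). The median of that list was -0.17 with all arrays and -0.16 without siChe-1 replicate 1. No mitotic gene of 23 passed by limma (3 higher at an unadjusted p under 0.05), with NUF2 at 0.47 and KIF20A at 0.31, and that list had a median of 0.01, or 0.13 without siChe-1 replicate 1. Replicate 1 was the lowest siChe-1 array for 25 of the 41 replication genes and 17 of the 23 mitotic genes. That share was 38.8% over all genes, and 61.8% among all genes with a mean over 8. The median levels of the replication and mitotic lists were 8.35 and 8.61.

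Of 16 p53 targets, 2 were higher, 2 were lower and 12 did not pass, with 4 higher and 3 lower at an unadjusted p under 0.05. TP53INP1 and the stress cytokine GDF15 were higher, with differences of 1.17 and 1.14 (limma adjusted p = 0.000506 for TP53INP1 and 0.0012 for GDF15). Lower levels were measured for the nuclease gene AEN and for GADD45A, which acts in growth arrest, with differences of -1.09 and -0.53 (limma adjusted p = 0.000535 for AEN and 0.0374 for GADD45A). In these 4 genes the groups did not overlap, and the differences without siChe-1 replicate 1 were 1.11 for TP53INP1, 1.08 for GDF15, -1.14 for AEN and -0.52 for GADD45A. Across the lists, those with a median below 0 with all arrays included the other recombination genes (-0.18), the end joining genes (-0.19) and the other Fanconi genes (-0.17), against -0.12, -0.15 and -0.05 without siChe-1 replicate 1. No test was made of one list against another.

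**Figure D5:**
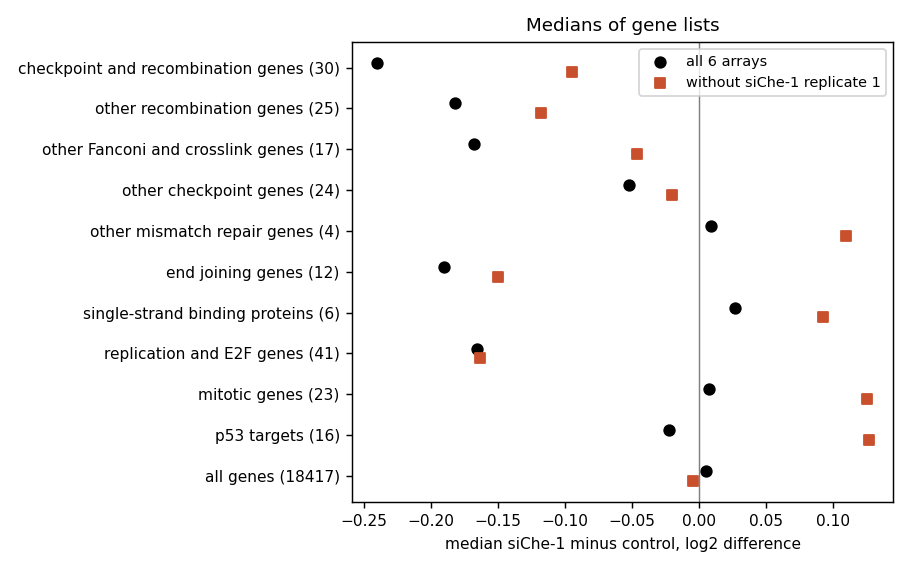
Median difference, siChe-1 minus control (x axis, log2), of each gene list with the number of measured genes in brackets, for all 6 arrays (black circles) and without siChe-1 replicate 1 (orange squares). The median of the 30 checkpoint and recombination genes is -0.24 and -0.09, and that of the replication genes is -0.17 and -0.16.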

How the data were processed

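The authors deposited log2 intensities. The submitters' processing notes name RMA and Affymetrix Expression Console without a version. Because RMA equalises the arrays' distributions, a global shift in RNA content is invisible, and low signals give compressed differences. The deposited table holds 33297 probe sets, 19460 of them paired with 1 symbol by the platform annotation, and no detection calls. Where a gene had several, the brightest on average was kept, giving 18417 genes. No columns other than those of the 6 samples were present (0). Arrays labelled siChe-1 were compared with arrays labelled control with limma 3.58.1 under R 4.3.3, using lmFit and eBayes without covariates or a filter on dim genes. Adjustment was by Benjamini-Hochberg across all genes, at a threshold of 0.05. Errors of a difference are moderated SEs. The genes and lists were chosen with earlier results of these data known, so no p is given over a list. Every gene of the set could be named, and of the other lists the called genes (up to 4 with the largest change), or the 2 with the smallest p where none was called. On simulated data for this comparison, with 18417 genes, the test recovered 81% of 2-fold and 99% of 4-fold changes, and 4.76% of calls were false. The simulated noise was independent between genes, and no simulated array deviated across many genes as siChe-1 replicate 1 did. Changes under 2-fold were not simulated, and these rates may not hold for the data. Alternatives were another quantile normalization, median centring, a filter on dim genes, all rows tested, averaged probe sets, a trended robust prior, array weights, a replicate block, other thresholds and leaving out each array.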

Additional observations from a re-analysis of the deposited data

How the results depend on the processing

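The AATF difference kept its direction and passed in every setting run, between 1.05 and 1.23. Over all genes 685 passed, and 408 with all probe set rows tested, 2865 with array weights, 1299 at an adjusted p under 0.10 and 261 under 0.01. Leaving out 1 array gave between 272 and 1565. Centring the arrays on their medians gave 850, of which 170 were higher and 680 lower, beside 220 and 465. None of the 30 checkpoint and recombination genes passed, and 2 did after centring or at an adjusted p under 0.10 (CHEK2 and PALB2 both times) and 3 with array weights (CHEK2, TIPIN and PALB2, all lower). Leaving out 1 array gave between 0 and 1, the 1 being CHEK2 without siChe-1 replicate 2. With the replicate number as a block 1145 genes and 1 checkpoint gene passed, CHEK2 (adjusted p = 0.0145). Same-numbered arrays deviated together at r = 0.23, 0.06 and -0.04 for numbers 1, 2 and 3, and not every array correlated best with its own number, so the numbers are not taken to pair the arrays. The median difference of the 30 genes lay between -0.32 and -0.09 over all settings, the smaller in size with array weights or without siChe-1 replicate 1. Some differences changed sign. With array weights this held for ATM (0.27), CHEK1 (0.18), TOPBP1 (0.056), TIMELESS (0.044), BRCA1 (0.010), BRIP1 (0.16) and FANCL (0.12), after another quantile normalization for ATM (0.031), CHEK1 (0.025) and TIMELESS (0.012), and after centring for FANCE (-0.060). Leaving out 1 array gave ranges across 0 for ATM (-0.24 to 0.38), ATR (-0.45 to 0.079), CHEK1 (-0.13 to 0.21), TOPBP1 (-0.13 to 0.065), TIMELESS (-0.096 to 0.038), BRCA1 (-0.23 to 0.11), BRIP1 (-0.25 to 0.27), RAD54B (-0.37 to 0.083), FANCC (-0.021 to 0.36), FANCE (-0.052 to 0.087), FANCL (-0.17 to 0.12) and FANCI (-0.28 to 0.021). For 10 genes the sign changed without siChe-1 replicate 1. The cause was not tested. No detection calls were at hand, so the reliability of dim genes such as FANCB is limited.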

Other observations

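In the comparison that leaves out siChe-1 replicate 1, 8.5% of all genes passed by limma, and genes of the neighbouring lists that passed there are named after their values were seen. Those lists gave 2 lower of 25 other recombination genes, 3 lower and 1 higher of 17 other Fanconi genes, 2 lower of 24 other checkpoint genes, 1 lower and 1 higher of 12 end joining genes, 5 lower of 41 replication genes and 3 higher of 23 mitotic genes. FANCM, the translocase that anchors the Fanconi core complex to DNA, read 4.92, 5.83 and 5.82 in the arrays labelled siChe-1 and 6.26, 6.42 and 6.25 in those labelled control. Its difference was -0.79 with all arrays (limma adjusted p = 0.0845) and -0.49 without siChe-1 replicate 1 (adjusted p = 0.0254). HROB, which loads a helicase during recombination, differed by -0.50 and by -0.64 (limma adjusted p = 0.112 and 0.0168). PKMYT1, a kinase that restrains CDK1, read 7.43, 6.88 and 6.72 in siChe-1 arrays and 7.47, 7.49 and 7.52 in control arrays. Replicates 2 and 3 were below control and replicate 1 was close to it, so the difference was -0.48 with all arrays and -0.69 without replicate 1 (limma adjusted p = 0.175 and 0.00461). CDT1, a licensing factor of replication origins, was the highest of all 6 arrays in siChe-1 replicate 1, at 9.00, with 7.86 and 7.79 in the other siChe-1 arrays and 8.64, 8.19 and 8.32 in control arrays. Its difference was -0.17, and -0.56 without that array (limma adjusted p = 0.0382). PRKDC, the end joining kinase, read 9.81, 10.52 and 10.35 in siChe-1 arrays and 9.92, 9.91 and 9.96 in control arrays, the same order as ATM. Its difference was 0.30, and 0.51 without siChe-1 replicate 1 (limma adjusted p = 0.0210). PRKDC spans 187 kb, and the part of span in this difference was not tested. Genes over 100 kb with a mean level of at least 5 had a median of 0.08 without that array. CENPF, of the mitotic list, had a difference of 0.36, and 0.53 without that array (limma adjusted p = 0.0173). Without that array the others were MAD2L2 at 0.41, NUF2 at 0.64 and KIF20A at 0.41, which were higher, and FAAP100 at -0.48, DCLRE1B at -0.57, ORC1 at -0.51 and CCNE1 at -0.45, which were lower (limma adjusted p between 0.0104 and 0.0438). SFR1, CDC25A, XRCC4, GINS3 and POLA2 passed both with and without it. Of these, only CDC25A also passed when any other single array was left out (limma adjusted p between 0.0241 and 0.0460). GINS3 passed without siChe-1 replicate 2 (limma adjusted p = 0.0301) but not without siChe-1 replicate 3 or any control array. SFR1, XRCC4 and POLA2 did not pass in any of those comparisons (limma adjusted p between 0.0658 and 0.194).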
